A study of Mus musculus with 32 samples.

Results

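The genes described here are the guidance cue genes of cultured mouse fibroblasts: the semaphorins with their plexin and neuropilin receptors, the Slit ligands with their Robo receptors, the netrins with their Unc5 receptors, and the ephrins with their Eph receptors. Members are all genes whose symbol matches a pattern of these family names. The families themselves were picked with earlier results of these data known. RefSeq's gene table holds 68 symbols of that pattern, and 56 of them were measured in at least 1 medium, 55 among the 12791 genes of the 10 mM glucose table and 49 among the 12053 genes of the 1 mM glucose table, with 48 in both. Epha1, Epha5, Plxnb3, Robo3, Sema4g, Unc5a and Unc5d were analysed in 10 mM glucose alone and Sema3g in 1 mM glucose alone. Epha6, Epha8, Epha10, Ephb1, Ntn5, Plxnc1, Robo4, Sema3d, Sema3e, Sema4f, Sema5b and Slit1 were not analysed here.

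Guidance cues were named for steering growing axons, and they also act on the cytoskeleton and adhesion of migrating cells, fibroblasts included. Class 3 semaphorins are secreted and bind neuropilins, which signal through plexins, whereas most semaphorins of the other classes are tethered to the membrane and bind plexins directly. Slits are secreted ligands of Robo receptors, netrins are laminin-related ligands of Unc5 receptors and of Dcc, and ephrins are membrane-bound ligands that signal on contact with Eph receptor tyrosine kinases and also back into the cell that carries them.

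All cells were Acly knockout mouse embryonic fibroblasts (MEFs), which lack the mouse enzyme that makes cytosolic and nuclear acetyl-CoA from citrate. The cells of the KO group carried mCherry alone in the expression vector, the WT group carried human ACLY tagged with mCherry (ACLY WT), the Cyto group carried that protein with a nuclear export sequence (ACLY-Cyto), and the Nuc group carried it with additional nuclear import sequences (ACLY-Nuc). Each group was kept for 24 h in 10 mM or 1 mM glucose, in medium described for growth as DMEM with 10% CS, and total RNA was sequenced, which makes it possible to ask whether the place of ACLY in the cell goes with the level of a transcript. There were 4 libraries per group, less the third Cyto library in 10 mM glucose, which the submitters called an anomaly and which was not analysed here, so 15 libraries were used in 10 mM and 16 in 1 mM glucose. Whether the libraries within a group stem from independent cultures or clones is not stated in the labels, so every p-value measures the spread among these libraries, which may be technical.

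Values were log2 levels on a CPM scale (counts scaled to library size), normalized by the authors separately for each medium, and the read depth behind them is unknown. All 10 mM libraries were labelled batch 2 and all 1 mM libraries batch 1, so glucose and batch cannot be told apart, and levels were compared within a medium. Acly itself, the deleted gene, was lowest in KO in both media. In 10 mM glucose it stood at 5.87 ± 0.21 in KO, 10.21 ± 0.06 in WT, 9.74 ± 0.13 in Cyto (n = 3) and 9.12 ± 0.12 in Nuc. In 1 mM glucose it stood, in the same order, at 5.35 ± 0.10, 10.57 ± 0.10, 10.50 ± 0.07 and 8.97 ± 0.08 (log2 mean ± SD, n = 4 elsewhere). WT and Cyto overlapped in 1 mM glucose, with a mean difference of -0.06 (Cyto minus WT, log2). The introduced gene is human, and whether its reads were counted under mouse Acly was not tested. Of 12 fibroblast markers all 12 were measured in both media, while epithelial markers gave 0 of 6 in both media, neuronal markers 1 of 8 and 0 of 8, and endothelial markers 2 of 8 and 1 of 8. Muscle markers gave 3 of 6 and 2 of 6. Glial and Schwann markers gave 2 of 6 in both media, and so did blood markers. The highest of these other markers had a mean of 3.34 (log2, a muscle marker in 10 mM glucose). The lowest fibroblast marker lay below that, with a mean of 1.71 in 10 mM and -0.15 in 1 mM glucose. In 1 mM glucose the highest muscle marker had a mean of 2.61. The summed muscle markers ran from 9.98 to 18.3 CPM in 10 mM and from 2.85 to 10.7 CPM in 1 mM glucose over all libraries. The summed level of the 12 fibroblast markers ran in 10 mM glucose from 27511 to 28360 CPM in KO, 47249 to 48815 in WT, 39388 to 42912 in Cyto and 51521 to 54906 in Nuc. In 1 mM glucose it ran from 39109 to 46093 in KO, 61135 to 71042 in WT, 36297 to 39642 in Cyto and 56396 to 61322 in Nuc, and its part in the results below was not tested. In bulk RNA, fewer cells of a type and less RNA per cell cannot be told apart.

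Some libraries stood apart for these genes. The WT replicate 2 in 1 mM glucose was the lowest of its 4 libraries for 33 of 49 members, with a median of -0.40 on the log2 scale against the mean of the other 3. In 10 mM glucose the libraries numbered 4 were the lowest of their group for 28 of 55 members in WT, 27 of 55 in Cyto (3 libraries) and 27 of 54 in Nuc, but for 14 of 54 in KO. At 1 mM glucose KO replicate 4 was the lowest for 26 of 49. Counts without WT replicate 2 of 1 mM glucose, and without all libraries numbered 4 of 10 mM glucose, are given below. Members were also long: their median transcript length was 4466.5 bases in 10 mM and 4472 in 1 mM glucose, against 2795.75 and 2787 bases over all genes, and values with each library's trend on length removed are given where they change a result.

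Levels per kilobase of transcript, which allow genes to be compared with one another, put the plexins first. The 8 plexins of the 10 mM table summed to 197 CPM per kilobase in the median library and the 7 of the 1 mM table to 212. Plxnb2, a receptor for class 4 semaphorins, held most of that, with 126 and 138, and ranked first among all members in both media. Nrp1, the co-receptor of Sema3a, stood at 54 and 45.9, Unc5b, a netrin receptor, at 46.4 and 71, Plxna1, a partner of neuropilins, at 37.2 and 37.5, and Ephb3, a receptor for B-class ephrins, at 34.7 and 33.2. Among ligands Slit2 (25 and 30.1) and Sema3f (24.1 and 28.6) led. Netrins were the family with the smallest sum, 4.05 and 2.97 over 3 genes, and the Robo receptors came next with 4.50 over 3 genes and 6.99 over 2.

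Of the 48 members in both tables, 5 passed the test in the same direction in all 6 comparisons of a construct with KO (3 in each medium): Sema3a, Efnb2, Epha7 and Unc5b were higher and Efnb1 was lower. Over all 11931 shared genes 9.11% did so, against 10.4% of the members, a share near the background. The 3 comparisons of a medium share their KO libraries. The promoters of these 5 are printed here because they were called in each comparison with KO. Efnb1 went in the opposite direction to the other 4. The data hold no measurement at promoters. Each line is the 250 bases before the first transcript start in RefSeq's GRCm38.p6 table (the expression files were made on GRCm39, so these coordinates are not theirs), 5′ to 3′ on the strand of the gene. Capitals mark matches, on either strand, to the GC box (GGGCGG), the TATA box (TATAAA), the CCAAT box (CCAAT), an AP-1 site (TGANTCA) or a TEAD site (CATTCC).
Sema3a: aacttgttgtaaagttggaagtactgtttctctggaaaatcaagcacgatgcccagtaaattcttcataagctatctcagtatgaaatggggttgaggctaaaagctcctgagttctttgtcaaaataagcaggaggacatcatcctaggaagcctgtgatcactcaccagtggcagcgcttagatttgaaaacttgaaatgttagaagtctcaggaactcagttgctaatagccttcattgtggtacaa
Efnb2: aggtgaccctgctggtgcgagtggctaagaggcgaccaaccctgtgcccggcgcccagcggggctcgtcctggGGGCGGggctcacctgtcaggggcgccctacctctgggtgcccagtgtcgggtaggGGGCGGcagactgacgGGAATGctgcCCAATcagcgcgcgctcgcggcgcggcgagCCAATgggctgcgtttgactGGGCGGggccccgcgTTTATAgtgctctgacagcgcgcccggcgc
Epha7: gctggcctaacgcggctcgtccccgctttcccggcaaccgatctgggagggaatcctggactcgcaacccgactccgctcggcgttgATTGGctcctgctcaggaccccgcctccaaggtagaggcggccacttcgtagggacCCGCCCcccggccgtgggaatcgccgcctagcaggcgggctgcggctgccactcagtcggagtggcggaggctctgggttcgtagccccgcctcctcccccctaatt
Unc5b: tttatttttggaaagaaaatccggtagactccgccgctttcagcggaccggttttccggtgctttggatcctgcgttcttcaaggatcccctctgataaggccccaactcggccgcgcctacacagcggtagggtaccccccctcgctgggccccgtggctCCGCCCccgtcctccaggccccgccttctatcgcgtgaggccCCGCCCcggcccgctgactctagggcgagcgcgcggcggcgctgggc
Efnb1: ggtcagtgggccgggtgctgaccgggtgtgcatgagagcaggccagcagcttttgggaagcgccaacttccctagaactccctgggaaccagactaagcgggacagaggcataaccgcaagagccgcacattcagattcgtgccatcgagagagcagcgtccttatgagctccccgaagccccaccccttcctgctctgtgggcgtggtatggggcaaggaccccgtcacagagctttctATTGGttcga

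The windows lie at chr5:13396534-13396783 on the plus strand, chr8:8661243-8661492 on the minus strand, chr4:28812881-28813130 on the plus strand (the first of 2 starts listed), chr10:60831582-60831831 on the minus strand and chrX:99135811-99136060 on the plus strand. The genes that were higher have no motif in common: the Efnb2 window holds 3 GC boxes, 2 CCAAT boxes, 1 TATA box and 1 TEAD site, that of Epha7 1 GC box and 1 CCAAT box, that of Unc5b 2 GC boxes, and that of Sema3a none of these letters. The single match in Efnb1, which was lower, is a CCAAT box. The Sema3a window is also the poorest in G and C, with 40.8% against 72% for Efnb2, 69.2% for Epha7, 66.8% for Unc5b and 60% for Efnb1. Over the 64 promoters that the table lists for 48 members, the GC box occurred in 75% against 32.7% of all 32851 promoters, the TATA box in 3.13% against 12.4%, the CCAAT box in 20.3% against 33.8%, the AP-1 site in 4.69% against 6.75% and the TEAD site in 12.5% against 12.6%. The median share of G and C was 64.6% in members and 52.4% in all promoters. The members were measured in these data, whereas the set of all promoters was not limited to measured genes. These shares therefore compare unlike sets, and a background of measured genes alone was not tested. A match describes letters in the window and is not evidence of a bound factor.

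Differences among the 4 groups were tested with limma on the log2 values, with p-values adjusted by the Benjamini-Hochberg method over all genes of the table, and a gene was called at an adjusted p under 0.05. The F test across the 4 groups called 41 of 55 members in 10 mM glucose, where it called 63.6% of all genes, and 42 of 49 in 1 mM glucose, where it called 82.5%. The spread of the group means had a median of 0.88 log2 units over members against 0.56 over all genes in 10 mM glucose, and 1.07 against 0.65 in 1 mM glucose. Counts of calls must be read against these high backgrounds, since a large share of all genes differed in each comparison.

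At 10 mM glucose more guidance genes were higher than lower in Cyto and in Nuc against KO, while WT against KO split almost evenly. WT against KO called 24 of 55 members (13 higher and 11 lower), with 40.8% of all genes called (20.6% higher and 20.2% lower) and a member median of 0.11. Cyto against KO called 24 (17 higher and 7 lower) against a background of 38.5% (19.6% and 18.9%), with a median of 0.01. Nuc against KO called 32 (24 higher and 8 lower) against 45.3% (22.7% higher and 22.7% lower), with a median of 0.23. The median over all genes was close to 0 in each. Calls that held in every alternative tried numbered 6 higher and 7 lower for WT, 12 and 6 for Cyto, and 17 and 6 for Nuc against KO.

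Among the ACLY constructs in 10 mM glucose, more members were higher in Nuc than in Cyto or WT. Nuc against Cyto called 26 (16 higher and 10 lower), with 31.0% of all genes called (15.3% and 15.7%) and a median of 0.16; that count fell to 17 without Cyto replicate 1 and to 16 without Nuc replicate 3. Cyto against WT called 18 (10 higher and 8 lower) against 31.5% (15.9% and 15.6%), with a median of 0.04. Nuc against WT called 24 (19 higher and 5 lower) against 28.8% (15.0% and 13.8%), with a median of 0.27. Without the libraries numbered 4 the counts were 23 (13 and 10) for WT, 25 (16 and 9) for Cyto and 27 (21 and 6) for Nuc against KO. They were 24 (16 and 8) for Nuc against Cyto, 17 (9 and 8) for Cyto against WT and 25 (20 and 5) for Nuc against WT.

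Under 1 mM glucose the balance against KO was the other way, with more members lower. WT against KO called 27 of 49 (8 higher and 19 lower) against 58.2% of all genes (29.7% and 28.5%), with a median of -0.20. The direction of that count rested in part on single choices: it was 25 (11 higher and 14 lower) without WT replicate 2, and 30 (15 higher and 15 lower) with length trends removed. Cyto against KO called 32 (10 higher and 22 lower) against 64.7% (31.7% and 33.0%), with a median of -0.29. Nuc against KO called 34 (14 higher and 20 lower) against 60.0% (30.5% and 29.5%), with a median of -0.30. As shares of the 49 members these counts are 55.1%, 65.3% and 69.4%, of which the first lies below its background, the second near it and the third above it.

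Nuc against Cyto in 1 mM glucose called 28 (16 higher and 12 lower) against 41.0% (20.4% and 20.5%), with a median of 0.22. Cyto against WT called 30 (16 higher and 14 lower) against 53.2% (25.7% and 27.5%), with a median of 0.04. Nuc against WT called 24 (18 higher and 6 lower) against 39.1% (19.7% and 19.4%), with a median of 0.15, and 27 (17 higher and 10 lower) with length trends removed. Without WT replicate 2 the last 2 counts were 33 (15 higher and 18 lower) and 26 (17 higher and 9 lower). In both media Nuc thus had more members higher than lower against WT and against Cyto. Over the 12 comparisons 323 member fold changes were called, of which 239 kept the call in every alternative tried and 84 lost it in at least 1. The map of fold changes shows, gene by gene, the calls against KO and those of Nuc against Cyto.

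By family, the calls of Nuc against KO were spread over ligands and receptors. This comparison called 45.3% of all genes in 10 mM and 60.0% in 1 mM glucose. Most families hold few genes, so a family count can lie far from these shares without being unusual. Among the secreted ligands they numbered, for class 3 semaphorins, 2 of 4 (2 higher and 0 lower) in 10 mM and 5 of 5 (2 and 3) in 1 mM glucose, for Slits, 1 of 2 (0 higher and 1 lower) in 10 mM and 2 of 2 (1 and 1) in 1 mM glucose, and for netrins, 3 of 3 (3 higher and 0 lower) in 10 mM and 2 of 3 (1 and 1) in 1 mM glucose. Semaphorins of classes 4 to 7 gave 6 of 11 (4 higher and 2 lower) in 10 mM and 6 of 10 (1 and 5) in 1 mM glucose. Plexins gave 7 of 8 (5 higher and 2 lower) in 10 mM and 6 of 7 (4 and 2) in 1 mM glucose, and neuropilins 1 of 2 (0 higher and 1 lower) in 10 mM and 1 of 2 (0 and 1) in 1 mM glucose. Robo receptors gave 0 of 3 (0 higher and 0 lower) in 10 mM and 1 of 2 (0 and 1) in 1 mM glucose, and Unc5 receptors 1 of 4 (1 higher and 0 lower) in 10 mM and 2 of 2 (1 and 1) in 1 mM glucose. A-class ephrins gave 4 of 5 (3 higher and 1 lower) in 10 mM and 2 of 5 (0 and 2) in 1 mM glucose, and B-class ephrins 2 of 3 (1 higher and 1 lower) in 10 mM and 2 of 3 (1 and 1) in 1 mM glucose. EphA receptors gave 3 of 6 (3 higher and 0 lower) in 10 mM and 3 of 4 (3 and 0) in 1 mM glucose, and EphB receptors 2 of 4 (2 higher and 0 lower) in 10 mM and 2 of 4 (0 and 2) in 1 mM glucose.

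**Figure D1:**
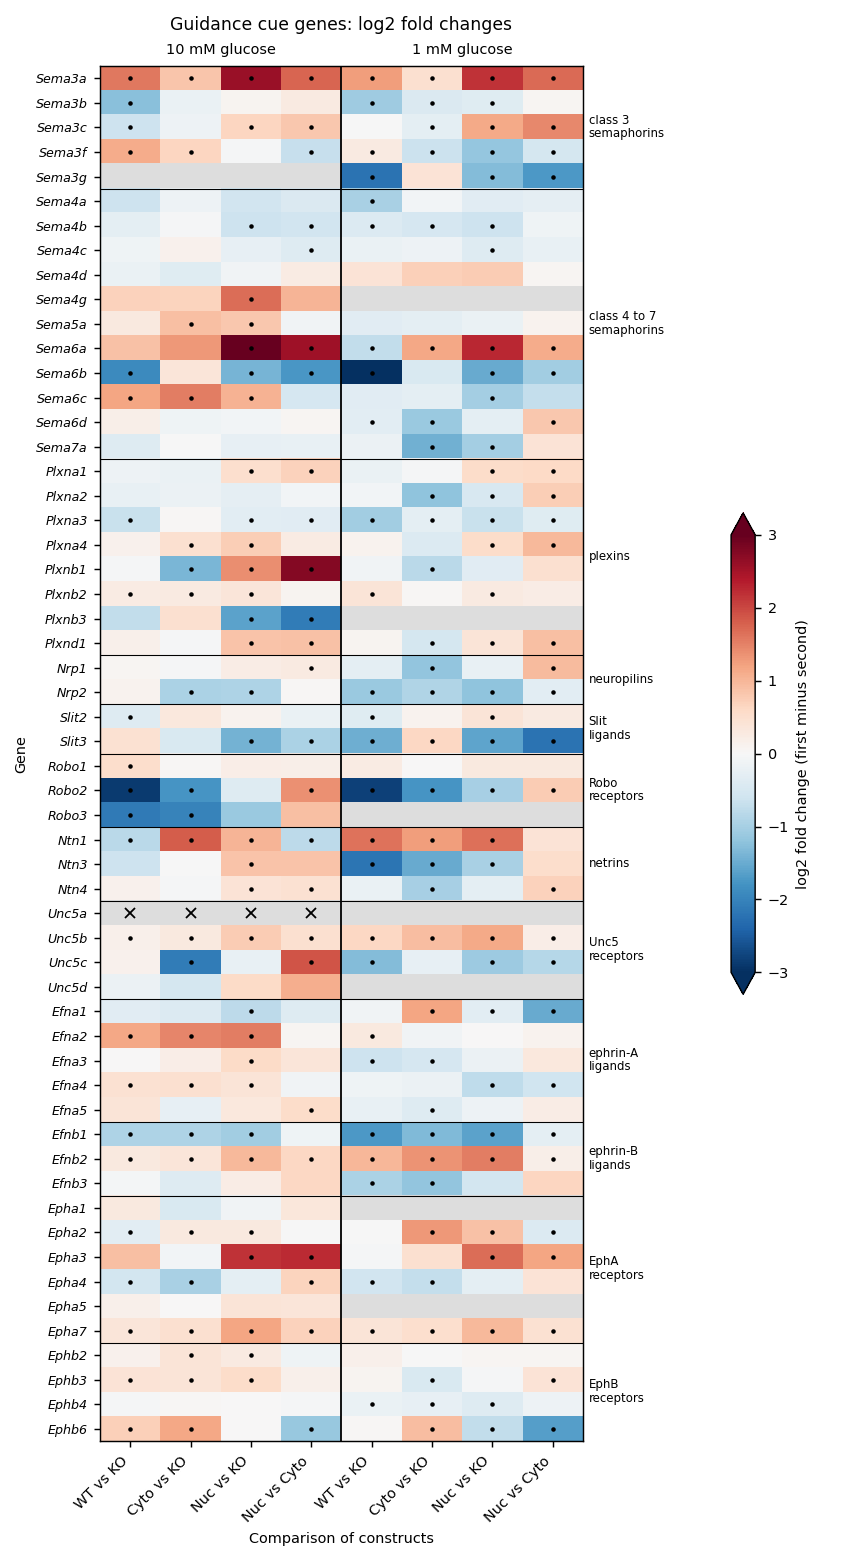
Log2 fold changes of the guidance cue genes (vertical axis, by family) in each medium. The comparisons are WT, Cyto and Nuc against KO, and Nuc against Cyto (horizontal axis). A dot marks an adjusted p under 0.05, grey a gene not analysed in that medium, and a cross a comparison of Unc5a with a group whose libraries are all at the lowest value; Efnb1 is lower and Sema3a higher than in KO in every construct and medium.

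Sema3a, a secreted repellent read through Nrp1 and A-class plexins, was ordered KO, Cyto, WT, Nuc in both media with no overlap between any groups. The 10 mM KO libraries held 5.12, 4.32, 4.31 and 4.20, the Cyto libraries 5.37, 5.33 and 5.29, the WT libraries 5.99, 6.23, 6.23 and 5.84 and the Nuc libraries 7.10, 7.16, 7.24 and 6.80. Its log2 fold changes against KO, each given with its standard error, were 0.84 ± 0.18 (adjusted p = 0.00118) in Cyto, 1.59 ± 0.16 (adjusted p = 1.17e-06) in WT and 2.59 ± 0.16 (adjusted p = 2.61e-09) in Nuc, the last being 6-fold. KO replicate 1 stood above the other 3 KO libraries. The libraries in 1 mM glucose read 5.35, 5.36, 5.32 and 4.63 in KO, 5.56, 5.37, 5.95 and 5.68 in Cyto, 6.44, 6.08, 6.68 and 6.48 in WT and 7.32, 7.41, 7.22 and 7.43 in Nuc. Here KO replicate 4 was low, and the highest KO and lowest Cyto values differed by little. Against KO, Cyto was higher by 0.47 ± 0.16 (adjusted p = 0.0152), WT by 1.25 ± 0.16 (adjusted p = 4.36e-06) and Nuc by 2.18 ± 0.16 (adjusted p = 4.23e-09). The Cyto call was lost without KO replicate 4 or Cyto replicate 3 (0.29 to 0.37, adjusted p from 0.0611 to 0.0614). Nuc exceeded Cyto by 1.74 ± 0.18 (adjusted p = 1.44e-06) in 10 mM and by 1.71 ± 0.16 (adjusted p = 2.37e-07) in 1 mM glucose.

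Efnb1 and Efnb2, membrane-spanning ligands of EphB receptors, moved in opposite directions from KO. Efnb1 stood at 5.12, 4.47, 4.64 and 4.76 in the 10 mM KO libraries, against 3.79, 3.86, 3.59 and 4.01 in WT, 3.71, 3.94 and 3.80 in Cyto and 3.77, 3.72, 3.88 and 3.42 in Nuc. All KO libraries lay above all others, and the 3 ACLY groups overlapped one another. The fold changes were -0.93 ± 0.14 (adjusted p = 7.99e-05) in WT, -0.93 ± 0.16 (adjusted p = 0.000177) in Cyto and -1.05 ± 0.14 (adjusted p = 1.77e-05) in Nuc. With glucose at 1 mM, KO held 5.41, 5.36, 5.58 and 5.35, WT 3.86, 3.52, 3.78 and 3.63, Cyto 4.21, 4.22, 4.02 and 3.97 and Nuc 3.68, 3.999, 3.68 and 3.90, again with KO apart from the rest. The corresponding changes were -1.73 ± 0.10 (adjusted p = 5.7e-10), -1.32 ± 0.10 (adjusted p = 6.78e-09) and -1.61 ± 0.10 (adjusted p = 7.79e-10), so WT stood 3.31-fold below KO.

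Efnb2 read 5.08, 4.74, 4.78 and 4.64 in KO, 5.21, 5.12, 5.10 and 4.96 in WT, 5.07, 5.28 and 5.13 in Cyto and 5.84, 5.80, 5.83 and 5.69 in Nuc in the 10 mM libraries. The Nuc libraries lay above all others there, while KO replicate 1 overlapped the WT and Cyto ranges. Nuc exceeded KO by 0.98 ± 0.10 (adjusted p = 4.22e-07), and the smaller differences were 0.29 ± 0.10 (adjusted p = 0.0232) for WT and 0.35 ± 0.10 (adjusted p = 0.0121) for Cyto. The WT call was lost without KO replicate 2, 3 or 4 or WT replicate 1 or 2 and in a fit of the compared groups alone (0.23 to 0.29, adjusted p from 0.0504 to 0.0727), and the Cyto call without Cyto replicate 2 and in a fit of the compared groups alone (0.29 to 0.35, adjusted p from 0.0507 to 0.067). The 1 mM libraries separated fully, with KO at 4.48, 4.55, 4.55 and 4.57, WT at 5.53, 5.41, 5.63 and 5.53, Cyto at 5.83, 5.98, 5.90 and 5.85 and Nuc at 6.09, 6.07, 6.08 and 6.00. The changes against KO were 0.99 ± 0.06 (adjusted p = 6.99e-10), 1.35 ± 0.06 (adjusted p = 7.42e-12) and 1.53 ± 0.06 (adjusted p = 2.62e-12). The third B-class ephrin, Efnb3, was low, and its 1 mM values fell from 0.08 to 0.84 in KO to -0.92 to -0.43 in Cyto, a change of -1.19 ± 0.28 (adjusted p = 0.00123) that was lost under quantile normalization (-0.61, adjusted p = 0.0662).

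Unc5b, a netrin receptor that also acts in blood vessels, rose in small, well separated steps. Its libraries in 10 mM glucose read 7.66, 7.55, 7.55 and 7.60 in KO, 7.77, 7.77, 7.79 and 7.69 in WT, 7.95, 7.87 and 7.82 in Cyto and 8.44, 8.42, 8.35 and 8.24 in Nuc, with no overlap between groups. The Nuc change was 0.77 ± 0.06 (adjusted p = 1.2e-08), the Cyto change 0.29 ± 0.06 (adjusted p = 0.000993) and the WT change 0.16 ± 0.06 (adjusted p = 0.0259), and the WT call was lost without KO replicate 2 or 3 or WT replicate 1, 2 or 3 and under quantile normalization (0.13 to 0.16, adjusted p from 0.0582 to 0.0682). In the 1 mM libraries the order was the same and the steps wider, from 7.66, 7.53, 7.65 and 7.55 in KO through 8.19, 8.03, 8.31 and 8.32 in WT and 8.54, 8.55, 8.48 and 8.51 in Cyto to 8.61, 8.82, 8.77 and 8.72 in Nuc. Against KO these amounted to 0.62 ± 0.07 (adjusted p = 6.9e-07), 0.93 ± 0.07 (adjusted p = 2.7e-09) and 1.13 ± 0.07 (adjusted p = 2.92e-10).

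Epha7, a receptor for A-class ephrins, was the fifth gene called in all 6 comparisons. The 10 mM libraries held 4.77, 4.86, 5.17 and 5.11 in KO, 5.75, 5.31, 5.04 and 5.29 in WT, 5.66, 5.35 and 5.36 in Cyto and 6.15, 6.29, 6.21 and 5.98 in Nuc. Nuc lay above every other library and KO overlapped WT. The changes were 1.18 ± 0.14 (adjusted p = 2.63e-06) in Nuc, 0.48 ± 0.15 (adjusted p = 0.0156) in Cyto and 0.37 ± 0.14 (adjusted p = 0.0381) in WT. The Cyto call was lost without Cyto replicate 1 and with array weights (0.38, adjusted p from 0.0554 to 0.09), and the WT call without KO replicate 1 or 2 or WT replicate 1, 2 or 4, with no trend in the prior variance, with array weights and in a fit of the compared groups alone (0.24 to 0.39, adjusted p from 0.0552 to 0.144), with the lowest value when WT replicate 1 was left out. In 1 mM glucose KO held 5.33, 5.36, 5.31 and 5.17, WT 5.98, 5.24, 5.83 and 5.66, Cyto 5.60, 5.91, 5.85 and 5.86 and Nuc 6.26, 6.33, 6.25 and 6.18, where WT replicate 2 fell within the KO range. The changes there were 0.38 ± 0.12 (adjusted p = 0.0107), 0.51 ± 0.12 (adjusted p = 0.00115) and 0.96 ± 0.12 (adjusted p = 2.54e-06).

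**Figure D2:**
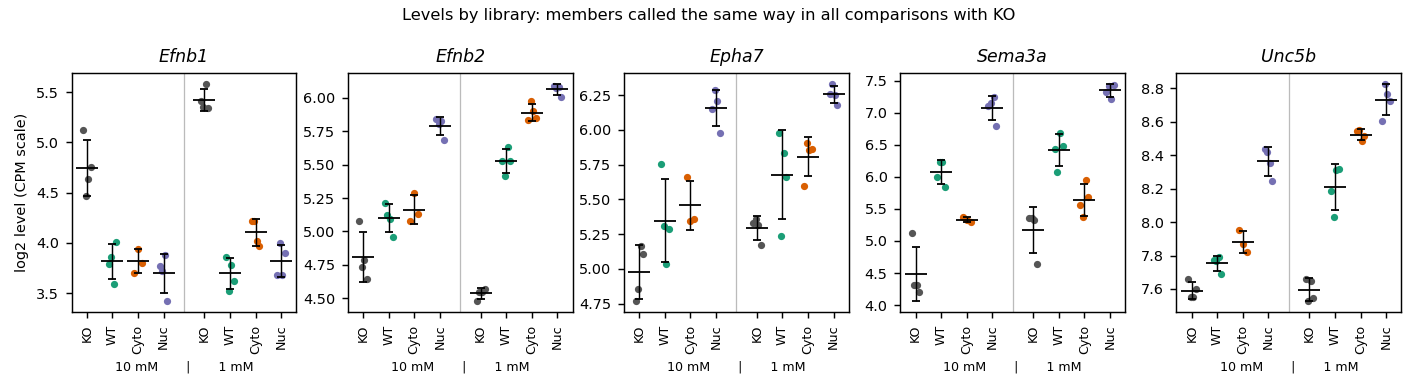
Log2 level in every library (points) with group mean and SD (bars) of the 5 genes called in the same direction in all 6 comparisons with KO, by construct on the horizontal axis, 10 mM glucose left and 1 mM right of the line. Efnb1 has its highest points in KO, and the other 4 genes have their highest points in Nuc.

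The other secreted semaphorins did not follow Sema3a. Sema3c, a Nrp-dependent cue known for cardiac and vascular patterning, was highest in Nuc: its 10 mM libraries read 6.61, 6.50, 6.36 and 6.18 in KO, 5.78, 5.77, 5.81 and 5.75 in WT, 6.22, 6.26 and 6.27 in Cyto and 7.15, 7.06, 7.05 and 6.998 in Nuc. WT lay below all other libraries and Nuc above them. WT was lower than KO with a difference of -0.63 ± 0.08 (adjusted p = 7.56e-06) and Nuc higher by 0.65 ± 0.08 (adjusted p = 3.69e-06). At 1 mM glucose KO held 5.88, 5.84, 5.94 and 5.88, WT 5.91, 5.77, 5.99 and 5.78, Cyto 5.41, 5.64, 5.63 and 5.65 and Nuc 7.07, 6.98, 7.04 and 6.95, so that Nuc again stood apart while KO and WT overlapped. The change in Nuc was 1.13 ± 0.07 (adjusted p = 3.7e-10), that in WT -0.02 ± 0.07 (adjusted p = 0.802).

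Sema3f, a repellent read through Nrp2, was lowest in Nuc in 1 mM glucose. The libraries of that medium held 6.82, 6.57, 6.58 and 6.51 in KO, 7.02, 6.59, 6.97 and 6.99 in WT, 6.21, 5.79, 5.95 and 5.97 in Cyto and 5.40, 5.60, 5.42 and 5.44 in Nuc. Cyto and Nuc overlapped neither KO nor each other, with changes of -0.64 ± 0.10 (adjusted p = 4.27e-05) and -1.15 ± 0.10 (adjusted p = 6.06e-08). Under 10 mM glucose KO (5.74, 5.65, 6.13 and 5.92) overlapped Nuc (5.62, 6.04, 5.88 and 5.72), and the WT (6.85, 6.999, 6.99 and 7.03) and Cyto (6.54, 6.34 and 6.62) libraries were higher. WT rose by 1.11 ± 0.11 (adjusted p = 6.66e-07) and Cyto by 0.64 ± 0.12 (adjusted p = 0.000378), whereas Nuc against KO gave -0.04 ± 0.11 (adjusted p = 0.773). Cyto against KO was therefore called upward in 10 mM and downward in 1 mM glucose. Nuc was below Cyto in both, with a difference of -0.68 (adjusted p = 0.000295) and -0.52 (adjusted p = 0.000735).

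Sema3b, a class 3 semaphorin studied as a tumour suppressor, was lowest in WT. In 10 mM glucose the WT libraries read 2.39, 2.94, 2.74 and 2.88 and the KO libraries 3.62, 3.96, 4.27 and 4.08, without overlap, a change of -1.24 ± 0.21 (adjusted p = 0.000181). Under 1 mM glucose WT read 3.62, 3.32, 3.14 and 3.14 and KO 4.32, 4.56, 4.37 and 4.25, again apart, a change of -1.07 ± 0.13 (adjusted p = 2.58e-06). The Cyto and Nuc libraries of 10 mM glucose overlapped KO (3.25 to 4.33 and 3.75 to 4.30). In 1 mM glucose those of Cyto (3.64 to 4.22) and Nuc (3.88 to 4.17) all lay below KO. Both were called lower there, with differences of -0.42 and -0.37. Sema3g, analysed in 1 mM glucose alone, was low but showed the same low WT: -0.94, -1.16, -0.64 and -1.61 against 1.29, 0.86, 1.19 and 1.16 in KO and 1.61, 1.49, 1.28 and 1.76 in Cyto. WT was below KO with a difference of -2.21 ± 0.25 (adjusted p = 1.19e-06) and Nuc (-0.43, -0.25, -0.44 and 0.37) with a difference of -1.31 ± 0.25 (adjusted p = 0.00024), while Cyto overlapped KO and gave 0.41 ± 0.25 (adjusted p = 0.16). With 1 added to the linear level, which shrinks the fold of low genes, the WT and Nuc changes were -1.10 and -0.75 and were still called.

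Among the membrane-bound semaphorins of classes 4 to 7, Sema6a and Sema6b, both ligands of A-class plexins, gave the widest differences. Sema6a in 10 mM glucose read -1.04, -0.64, -0.05 and 0.35 in KO, 0.91, 0.25, -1.20 and 2.14 in WT, 0.10, 1.23 and 1.54 in Cyto and 3.29, 3.66, 3.31 and 3.74 in Nuc. The Nuc libraries lay above all others, whereas the low values of the other groups scattered and overlapped. Nuc was higher than KO by 3.85 ± 0.54 (adjusted p = 2.04e-05), or 14.4-fold, and higher than Cyto by 2.55 ± 0.58 (adjusted p = 0.00305). With glucose at 1 mM, KO held 1.24, 1.11, 1.01 and 0.48, WT 0.82, -0.43, 0.27 and 0.27, Cyto 2.21, 2.60, 1.86 and 1.77 and Nuc 3.15, 3.40, 3.26 and 3.04, with Cyto and Nuc each apart from KO and from one another. The changes were 1.15 ± 0.25 (adjusted p = 0.000589) in Cyto and 2.25 ± 0.25 (adjusted p = 6.37e-07) in Nuc.

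Sema6b was lowest in WT. Its libraries in 10 mM glucose read 2.37, 1.86, 2.06 and 1.88 in KO, -0.44, 0.31, 0.10 and 0.60 in WT, 2.43, 2.22 and 2.53 in Cyto and 0.67, 0.84, 0.35 and 0.71 in Nuc. WT and Nuc lay below all KO and Cyto libraries and overlapped each other. WT was lower than KO with a difference of -1.90 ± 0.25 (adjusted p = 1.29e-05) and Nuc with a difference of -1.40 ± 0.25 (adjusted p = 0.000197), while Cyto differed by 0.35 ± 0.26 (adjusted p = 0.319). In the 1 mM libraries KO read 1.87, 1.27, 1.65 and 1.45, WT -1.66, -2.14, -1.18 and -2.23, Cyto 1.51, 0.76, 1.06 and 1.07 and Nuc 0.16, 0.39, -0.26 and -0.07. WT and Nuc were again below all KO and Cyto libraries, and here WT also lay below Nuc. The changes against KO were -3.37 ± 0.27 (adjusted p = 2.17e-08) in WT, -1.51 ± 0.27 (adjusted p = 0.00013) in Nuc and -0.46 ± 0.27 (adjusted p = 0.142) in Cyto. With 1 added to the linear level the 1 mM changes of WT and Nuc were -1.61 and -0.95, both still called, since a log2 level below 0 is less than 1 CPM.

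The remaining members of these classes changed less or in 1 medium. Sema5a, which carries thrombospondin repeats and is the member of these classes with the highest level, rose in 10 mM glucose in Cyto (6.98, 6.88 and 6.75) and Nuc (6.96, 6.97, 6.84 and 6.31) from 6.09, 6.18, 5.93 and 5.68 in KO, by 0.90 ± 0.15 (adjusted p = 0.00015) and 0.80 ± 0.14 (adjusted p = 0.000157). None of its 1 mM comparisons with KO passed the test, with values from -0.34 in WT to -0.20 in Nuc. Sema6d, a ligand of Plxna1 in other tissues, fell in Cyto in 1 mM glucose, from 4.43, 4.31, 4.25 and 4.14 to 3.22, 3.10, 3.15 and 3.22 without overlap, with a difference of -1.11 ± 0.13 (adjusted p = 7.75e-07). Sema6c read 2.23, 2.29 and 2.27 in Cyto and 1.05, 0.08, 0.91 and 0.84 in KO in 10 mM glucose and rose by 1.54 ± 0.43 (adjusted p = 0.0098). WT and Nuc overlapped KO there but were also called higher, by 1.17 and 1.04. The WT call was lost without KO replicate 2 or WT replicate 1, 2 or 3. In 1 mM glucose Sema6c was lower in Nuc (0.95, 0.97, 0.58 and 1.64) than in KO (1.96, 1.76, 2.15 and 2.35), with a difference of -1.02 ± 0.28 (adjusted p = 0.00539).

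Sema7a, the semaphorin held by a lipid anchor, fell in Cyto in 1 mM glucose from 0.36, 0.53, 0.21 and 0.69 to -2.03, -0.67, -0.47 and -0.76, with a difference of -1.43 ± 0.32 (adjusted p = 0.000785). Its Nuc libraries, from -0.94 to -0.29, also lay below all KO libraries there and were called lower, with a difference of -1.03. Sema4b fell in Nuc in both media, with a difference of -0.61 ± 0.17 (adjusted p = 0.00664) and -0.61 ± 0.15 (adjusted p = 0.00186), from 3.08, 3.16, 3.62 and 3.52 to 3.07, 2.58, 2.46 and 2.84 in the 10 mM libraries, which did not overlap. The 1 mM libraries likewise ran from 3.53, 3.47, 3.57 and 3.87 in KO to 2.98, 2.99, 3.04 and 2.97 in Nuc. Sema4g, analysed in 10 mM glucose, was higher in Nuc (1.19, 2.20, 0.91 and 1.26) than in KO (0.42, -0.83, -0.61 and -0.16), by 1.69 ± 0.44 (adjusted p = 0.00491). Sema4d was the member of the 48 with no call against KO in either medium, and its libraries ranged from -0.91 to 1.15 in 10 mM and from -0.85 to 1.58 in 1 mM glucose. Sema4a and Sema4c made no call that held in every alternative. With 1 added to the linear level the Sema4g change was 0.99 and that of Sema7a in Cyto -0.63 (-0.91 under quantile normalization), all still called.

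On the receptor side, the plexins split by gene. Plxnb1, the receptor of Sema4d, differed most between the targeted constructs: in 10 mM glucose Cyto read 1.56, 1.87 and 1.31, KO 3.82, 2.96, 2.43 and 2.56, WT 3.22, 2.89, 2.83 and 2.67 and Nuc 4.11, 5.09, 4.54 and 3.61. All Cyto libraries lay below KO, and Nuc overlapped KO only through the high KO replicate 1. Cyto was lower than KO with a difference of -1.36 ± 0.33 (adjusted p = 0.00381) and Nuc higher by 1.40 ± 0.31 (adjusted p = 0.00141), which gave 2.76 ± 0.33 (adjusted p = 9.53e-06) between Nuc and Cyto, or 6.76-fold. At 1 mM glucose the Nuc libraries (3.06, 2.94, 2.88 and 2.58) overlapped KO (3.96, 2.45, 3.52 and 2.89) and Cyto (2.12, 2.61, 2.69 and 2.12), and Nuc against Cyto gave 0.48 ± 0.28 (adjusted p = 0.181). Cyto was called lower than KO in this medium too, with a difference of -0.82, though their libraries overlapped. Exons of Plxnb1 overlap those of Gm7628 on the opposite strand, and the sources used here do not state whether counting used strand, so its level is uncertain to that extent.

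Plxnb2, the plexin with the highest level, varied little. The KO libraries of 10 mM glucose held 9.35, 9.38, 9.44 and 9.58, and those of WT 9.65, 9.66, 9.66 and 9.72, Cyto 9.71, 9.76 and 9.67 and Nuc 9.74, 9.78, 9.80 and 9.87 all lay above them. The largest of these differences was 0.36 ± 0.05 (adjusted p = 3.46e-05) in Nuc, and that of WT, 0.24 ± 0.05 (adjusted p = 0.00196), was lost under quantile normalization (0.01, adjusted p = 0.929). Under 1 mM glucose KO read 9.70, 9.56, 9.61 and 9.53 and WT 9.93, 10.37, 9.82 and 9.84, where WT replicate 2 was the highest. That change, 0.39 ± 0.09 (adjusted p = 0.00183), was likewise lost under quantile normalization (0.04, adjusted p = 0.615).

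Among the A-class plexins, which carry the signal of neuropilin-bound semaphorins, Plxna3 fell in WT and in Nuc in both media. It read 6.26, 6.49, 6.31 and 6.37 in KO and 5.72, 5.64, 5.94 and 5.47 in WT in 10 mM glucose, a change of -0.66 ± 0.11 (adjusted p = 0.000184), and 7.11, 7.05, 6.98 and 6.94 and 6.23, 5.63, 6.11 and 5.93 in 1 mM glucose, a change of -1.05 ± 0.11 (adjusted p = 6.07e-07). KO and WT did not overlap in either medium. The Nuc calls against KO were -0.31 in 10 mM and -0.66 in 1 mM glucose. Cyto was also called lower in 1 mM glucose, with a difference of -0.30. Plxna2 fell in Cyto in 1 mM glucose, from 5.89, 5.91, 5.88 and 5.57 to 4.62, 4.71, 4.47 and 4.60, with a difference of -1.22 ± 0.14 (adjusted p = 1.05e-06), while in 10 mM glucose it gave -0.18 ± 0.15 (adjusted p = 0.382). Nuc was called lower than KO for Plxna2 in 1 mM glucose as well, with a difference of -0.47. Plxna1 was higher in Nuc than in Cyto in both media: 8.81, 8.61, 8.73 and 8.20 against 8.11, 7.99 and 7.60 in 10 mM glucose and 8.80, 8.53, 8.54 and 8.51 against 8.11, 8.14, 7.85 and 7.91 in 1 mM glucose. These groups did not overlap, and the differences were 0.69 ± 0.16 (adjusted p = 0.00307) and 0.59 ± 0.18 (adjusted p = 0.0151). Plxna4 rose in Nuc over KO in 10 mM glucose by 0.73 ± 0.15 (adjusted p = 0.000939), and exceeded Cyto in 1 mM glucose (5.22, 5.12, 5.17 and 4.93 against 3.93, 4.27, 4.28 and 4.11) by 0.96 ± 0.20 (adjusted p = 0.000897). Both genes have exons that overlap an antisense gene (Gm26811 for Plxna1, Plxna4os3 for Plxna4), with the same uncertainty on strand.

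Plxnd1, the vascular plexin that can bind Sema3e without a neuropilin, was highest in Nuc in 10 mM glucose, where the Nuc libraries read 7.44, 7.40, 7.45 and 7.61 and those of KO 6.80, 6.57, 6.41 and 6.72, a change of 0.85 ± 0.09 (adjusted p = 1.83e-06) with no overlap. With glucose at 1 mM, Nuc (7.34, 7.17, 7.19 and 6.84) overlapped KO (6.77, 6.57, 7.002 and 6.62) and exceeded it by 0.39 ± 0.12 (adjusted p = 0.0074). Cyto was lower there, at 6.33, 6.35, 6.05 and 6.16, with a difference of -0.52 ± 0.12 (adjusted p = 0.00084). Plxnb3, analysed in 10 mM glucose alone, was low and scattered, from -3.29 to 0.86 over all libraries, and kept no call in every alternative.

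Neuropilins, the co-receptors of the secreted semaphorins, differed from each other. Nrp2 read 6.91, 7.07, 6.79 and 6.88 in KO and 7.08, 7.09, 7.04 and 6.89 in WT in 10 mM glucose, which overlapped, and 6.06, 5.92 and 5.90 in Cyto and 5.98, 6.10, 6.02 and 5.84 in Nuc, which lay below both. Cyto fell with a difference of -0.95 ± 0.08 (adjusted p = 1.97e-07) and Nuc with a difference of -0.93 ± 0.08 (adjusted p = 6.26e-08), with 0.11 ± 0.08 (adjusted p = 0.251) for WT. In the 1 mM libraries all 3 ACLY groups were below KO: KO held 7.56, 7.42, 7.57 and 7.26, WT 6.54, 5.85, 6.53 and 6.47, Cyto 6.52, 6.60, 6.56 and 6.55 and Nuc 6.19, 6.33, 6.22 and 6.25. The changes were -1.11 ± 0.12 (adjusted p = 6.9e-07), -0.90 ± 0.12 (adjusted p = 4.43e-06) and -1.21 ± 0.12 (adjusted p = 1.85e-07). Nrp1 fell in Cyto in 1 mM glucose alone among its comparisons with KO, from 7.70, 7.58, 7.67 and 7.39 to 6.33, 6.46, 6.39 and 6.44, with a difference of -1.18 ± 0.14 (adjusted p = 1.54e-06), or 2.26-fold. In that medium Sema3a and Nrp1 thus differed in the same direction between Nuc and Cyto, Nrp1 by 0.95 ± 0.14 (adjusted p = 4.6e-05).

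Slit3, one of the secreted Robo ligands, was lower in Nuc than in KO in both media. At 10 mM glucose KO read 4.13, 3.67, 3.76 and 3.86, WT 4.31, 4.31, 4.34 and 4.28, Cyto 3.24, 3.33 and 3.60 and Nuc 2.32, 2.25, 3.16 and 2.03. Nuc lay below all other libraries, with -1.42 ± 0.19 (adjusted p = 1.6e-05) against KO. In 1 mM glucose KO held 6.09, 5.95, 6.00 and 5.66, WT 4.55, 3.999, 4.76 and 4.53, Cyto 6.49, 6.68, 6.62 and 6.42 and Nuc 4.26, 4.44, 4.33 and 4.31, so WT and Nuc were low and overlapped and Cyto was highest. The changes were -1.47 ± 0.13 (adjusted p = 6.87e-08) in WT, -1.59 ± 0.13 (adjusted p = 1.71e-08) in Nuc and 0.63 ± 0.13 (adjusted p = 0.000432) in Cyto. Nuc was 4.65-fold below Cyto in 1 mM glucose, a difference of -2.22 ± 0.13 (adjusted p = 9.5e-10).

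Slit2, the Slit with the higher level, moved less. Its 10 mM libraries read 7.60, 7.84, 7.54 and 7.28 in KO, 7.10, 7.16, 7.38 and 7.07 in WT, 7.83, 8.001 and 7.78 in Cyto and 7.90, 7.82, 7.71 and 7.29 in Nuc, with every WT library below every Cyto library, and a difference of 0.69 (adjusted p = 0.00107). WT was called lower than KO in both media, at -0.39 ± 0.13 (adjusted p = 0.0229) and -0.36 ± 0.15 (adjusted p = 0.0493). The 10 mM call was lost without KO replicate 2 or WT replicate 1 or 4 (-0.36 to -0.30, adjusted p from 0.0578 to 0.085), and the 1 mM call without KO replicate 1, 2, 3 or 4, WT replicate 2, Cyto replicate 1, 2, 3 or 4 or Nuc replicate 1, 2, 3 or 4, with no trend in the prior variance, with library medians set equal, with array weights, in a fit of the compared groups alone and with length trends removed (-0.40 to -0.14, adjusted p from 0.0502 to 0.139), where leaving out WT replicate 2 gave -0.15. The 1 mM call of Slit2 was also lost when a replicate block was added to the fit.

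Robo2, a Slit receptor, was the Robo gene with the widest change. KO held 3.90, 3.45, 3.57 and 3.23 in 10 mM glucose, WT 1.502, 0.25, 1.11 and -0.16, Cyto 2.33, 0.64 and 2.32 and Nuc 2.64, 3.72, 3.31 and 2.90. WT and Cyto lay below all KO libraries, and Nuc overlapped KO. WT was lower with a difference of -2.86 ± 0.40 (adjusted p = 2.76e-05), or 7.27-fold, and Cyto with a difference of -1.78 ± 0.43 (adjusted p = 0.00358), with -0.40 ± 0.40 (adjusted p = 0.446) for Nuc. At 1 mM glucose KO read 4.31, 4.12, 4.19 and 4.61, WT 1.69, 1.98, 1.67 and 0.71, Cyto 2.00, 2.59, 2.73 and 2.81 and Nuc 3.64, 3.00, 3.49 and 3.08, all 3 ACLY groups below KO. The changes were -2.80 ± 0.24 (adjusted p = 5.67e-08), -1.78 ± 0.24 (adjusted p = 6.31e-06) and -1.003 ± 0.24 (adjusted p = 0.00188). Nuc exceeded WT in both media, by 2.46 ± 0.40 (adjusted p = 0.000196) and 1.79 ± 0.24 (adjusted p = 2.08e-05). The 10 mM excess of Nuc over Cyto, 1.38 ± 0.43 (adjusted p = 0.0218), was lost without Cyto replicate 2 or Nuc replicate 2 or 3 (0.82 to 1.32, adjusted p from 0.0507 to 0.152), the lowest of these being without Cyto replicate 2.

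Robo1, the Robo with the highest level, made 1 call against KO, 0.54 ± 0.18 (adjusted p = 0.0227) in WT in 10 mM glucose, which was lost without KO replicate 2 or 3 or WT replicate 2 or 3 (0.45 to 0.50, adjusted p from 0.0571 to 0.073). Its libraries there read 5.15, 4.41, 4.42 and 4.68 in KO and 5.24, 5.35, 5.30 and 4.92 in WT. Robo3, a divergent Robo analysed in 10 mM glucose alone, fell in WT from 0.34, 0.68, 1.502 and 1.26 to -0.46, -0.70, -1.59 and -1.92 without overlap, with a difference of -2.11 ± 0.58 (adjusted p = 0.00804). With 1 added to the linear level the WT change was -1.01 and still called. The drop in Cyto, -2.01 ± 0.63 (adjusted p = 0.0176), was lost without Cyto replicate 2 (-1.21, adjusted p = 0.124).

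Netrins were low. Ntn1, the best studied netrin, read in 10 mM glucose 0.86, 0.45, 0.43 and 1.17 in KO, 0.07, 0.05, -0.58 and 0.16 in WT, 2.63, 2.73 and 2.25 in Cyto and 1.65, 1.63, 1.76 and 1.97 in Nuc, with no overlap between groups. Cyto rose by 1.81 ± 0.27 (adjusted p = 5.69e-05) and Nuc by 1.02 ± 0.25 (adjusted p = 0.00305), while WT was lower with a difference of -0.80 ± 0.25 (adjusted p = 0.0168), a call lost without KO replicate 4 or WT replicate 3, under quantile normalization, in a fit of the compared groups alone and without the libraries numbered 4 (-0.80 to -0.57, adjusted p from 0.0537 to 0.0956). Under 1 mM glucose KO held -0.82, -1.14, -0.60 and -0.74, WT 0.43, -0.24, 1.65 and 1.39, Cyto 0.70, 0.72, -0.35 and 0.66 and Nuc -0.21, 0.67, 1.53 and 1.34, so every ACLY library was above every KO library. The changes were 1.63 ± 0.43 (adjusted p = 0.00351), 1.26 ± 0.43 (adjusted p = 0.0157) and 1.66 ± 0.43 (adjusted p = 0.00292). With 1 added to the linear level they were 0.86, 0.60 and 0.86, all called. Ntn1 was thus called in all 6 comparisons with KO but not in the same direction.

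Ntn3 fell in WT in 1 mM glucose, from 3.14, 1.89, 2.66 and 3.01 to 0.96, 0.17, 0.10 and 0.65, with a difference of -2.20 ± 0.34 (adjusted p = 3.79e-05), and in Cyto (1.76, 1.15, 0.05 and 1.69) with a difference of -1.51 ± 0.34 (adjusted p = 0.000956). Its exons overlap BC028777 and Tbc1d24, so reads may be shared among these genes. Ntn4, a basement membrane netrin and the one with the highest level, fell in Cyto in 1 mM glucose, from 3.81, 2.98, 3.42 and 3.12 to 2.05, 2.37, 2.56 and 2.41, with a difference of -0.98 ± 0.20 (adjusted p = 0.000337).

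The other Unc5 receptors set the constructs apart in ways that Unc5b did not. Unc5c, a netrin receptor of the same repellent family, read in 10 mM glucose 4.58, 4.64, 4.53 and 3.77 in KO, 4.60, 4.52, 4.66 and 4.22 in WT, 4.35, 4.45, 4.12 and 3.72 in Nuc and 1.61, 2.88 and 2.35 in Cyto. The Cyto libraries lay below all others, -2.10 ± 0.27 (adjusted p = 1.19e-05) against KO, or 4.29-fold. With glucose at 1 mM, KO held 5.52, 5.52, 5.44 and 5.22, Cyto 5.03, 5.26, 5.21 and 5.21, WT 4.53, 3.15, 4.60 and 4.20 and Nuc 4.24, 4.30, 4.29 and 4.49, and here WT and Nuc were low. WT gave a change of -1.31 ± 0.22 (adjusted p = 7.39e-05) and Nuc with a difference of -1.09 ± 0.22 (adjusted p = 0.000348), with -0.25 ± 0.22 (adjusted p = 0.33) for Cyto. Nuc was therefore above Cyto in 10 mM glucose by 1.88 ± 0.27 (adjusted p = 4.98e-05) and below it in 1 mM glucose with a difference of -0.85 ± 0.22 (adjusted p = 0.00472). Exons of Unc5c overlap Gm15688 on the opposite strand.

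Unc5a, analysed in 10 mM glucose alone, was listed at the lowest value of the table, -3.29, in all 4 KO and all 4 Nuc libraries, against 3.29, 3.41, 3.71 and 3.43 in WT and 0.71, 0.29 and 0.11 in Cyto. It passed the test in WT and Cyto against KO and in Nuc against both, and those calls are in the counts above, but a fold against libraries at the lowest value is not given. Cyto and WT did not overlap and gave a difference of -3.09 ± 0.37 (adjusted p = 9.4e-06). Its exons overlap those of Hk3 on the opposite strand, so the gene behind these reads is uncertain. Unc5d made no call, with libraries from -1.08 to 1.04.

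A-class ephrins, lipid-anchored ligands of EphA receptors, changed one by one. Efna2 rose in all 3 ACLY groups in 10 mM glucose: KO read 0.96, 1.502, 1.47 and 1.73, WT 2.54, 2.74, 2.48 and 2.56, Cyto 3.04, 2.64 and 2.99 and Nuc 3.12, 2.86, 2.71 and 3.08, with KO below all. The changes were 1.17 ± 0.18 (adjusted p = 8.42e-05), 1.47 ± 0.20 (adjusted p = 1.88e-05) and 1.52 ± 0.18 (adjusted p = 3.81e-06). The 1 mM Cyto and Nuc libraries (1.83 to 2.13 and 1.89 to 2.19) overlapped KO (1.98 to 2.15). Those of WT (2.25 to 2.49) all lay above KO. WT was called higher by 0.30 ± 0.12 (adjusted p = 0.0383). That call was lost without KO replicate 1, 3 or 4 or WT replicate 1, 3 or 4 and in a fit of the compared groups alone (0.25 to 0.31, adjusted p from 0.0512 to 0.104). Adding a replicate block to the fit ended it as well. Efna1 rose in Cyto in 1 mM glucose, from 2.60, 2.80, 2.77 and 2.77 to 3.98, 3.83, 3.97 and 3.86, by 1.18 ± 0.13 (adjusted p = 7.66e-07), and Nuc (2.23, 2.71, 2.27 and 2.42) was below Cyto with a difference of -1.50 ± 0.13 (adjusted p = 1.45e-07). Under 10 mM glucose Efna1 fell in Nuc (1.63, 2.09, 1.86 and 1.99) from 2.25, 2.99, 2.64 and 2.86 in KO, with a difference of -0.79 ± 0.19 (adjusted p = 0.00311).

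Efna3 fell in WT and Cyto in 1 mM glucose, with a difference of -0.62 ± 0.13 (adjusted p = 0.000752) and -0.50 ± 0.13 (adjusted p = 0.00343), from 4.14, 3.93, 4.12 and 4.26 in KO to 3.61, 3.40, 3.47 and 3.46 in WT. Efna4 was lower in Nuc (2.90, 3.00, 2.89 and 3.27) than in KO (3.91, 3.65, 3.79 and 3.80) in that medium, with a difference of -0.77 ± 0.12 (adjusted p = 3.28e-05). In 10 mM glucose its Nuc call was upward, 0.39 ± 0.15 (adjusted p = 0.0442), and was lost without KO replicate 1, 3 or 4, WT replicate 1, 2, 3 or 4, Cyto replicate 4 or Nuc replicate 3 or 4, with array weights, in a fit of the compared groups alone and without the libraries numbered 4 (0.27 to 0.40, adjusted p from 0.0501 to 0.188). Exons of Efna3 and Efna4 overlap genes on the opposite strand (Gm15998 and 4731419I09Rik). Efna5, the A-class ephrin with the highest level, kept none of its 3 calls in every alternative, 1 of which was against KO.

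EphA receptors included Epha2, a receptor that also signals without a ligand in tumour cells. It was higher in Cyto and Nuc in 1 mM glucose, with KO at 5.47, 5.68, 5.72 and 5.73, WT at 5.55, 5.44, 5.74 and 5.87, Cyto at 6.93, 7.08, 6.92 and 6.85 and Nuc at 6.46, 6.51, 6.53 and 6.61. Cyto and Nuc lay above all KO and WT libraries, and exceeded KO by 1.29 ± 0.09 (adjusted p = 1.35e-09) and 0.88 ± 0.09 (adjusted p = 2.05e-07). At 10 mM glucose WT was lowest, and both Cyto and Nuc exceeded it, by 0.62 (adjusted p = 0.000553) and 0.61 (adjusted p = 0.000363). Epha3 was higher in Nuc than in KO in both media, 0.69, 1.95, 1.84 and 0.58 against -0.46, 0.11, -1.82 and -1.47 in 10 mM and 1.20, 1.56, 1.87 and 1.49 against 0.48, -0.19, 0.62 and -1.44 in 1 mM glucose. These libraries did not overlap, and the changes were 2.18 ± 0.50 (adjusted p = 0.00189) and 1.66 ± 0.44 (adjusted p = 0.00341), or 1.13 and 0.97 with 1 added to the linear level, both called. Epha4, which binds ephrins of both classes, fell in Cyto in both media, with a difference of -0.96 ± 0.22 (adjusted p = 0.0027) from 4.91, 4.63, 4.20 and 3.74 to 3.22, 3.61 and 3.40, and with a difference of -0.71 ± 0.21 (adjusted p = 0.0077) from 4.03, 3.73, 4.23 and 3.63 to 3.06, 3.22, 3.15 and 3.34. Epha1 and Epha5, analysed in 10 mM glucose, made no call.

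EphB receptors, which bind the B-class ephrins, were led in change by Ephb6, a member without kinase activity. Under 10 mM glucose KO read 5.68, 5.73, 6.01 and 5.89, WT 6.50, 6.67, 6.46 and 6.49, Cyto 7.09, 6.95 and 6.91 and Nuc 5.63, 5.82, 5.89 and 6.00. Nuc overlapped KO, WT lay above both and Cyto above WT. WT rose by 0.71 ± 0.09 (adjusted p = 1.27e-05) and Cyto by 1.15 ± 0.10 (adjusted p = 1.59e-07), with 0.01 ± 0.09 (adjusted p = 0.969) for Nuc. In 1 mM glucose KO held 6.42, 6.30, 6.37 and 6.44, WT 6.49, 6.43, 6.46 and 6.32, Cyto 7.36, 7.29, 7.33 and 7.25 and Nuc 5.71, 5.68, 5.57 and 5.62, with Cyto above and Nuc below all others. The changes were 0.93 ± 0.06 (adjusted p = 3.8e-10) in Cyto and -0.74 ± 0.06 (adjusted p = 7.36e-09) in Nuc. Nuc was below Cyto in both media, with a difference of -1.15 ± 0.10 (adjusted p = 2.33e-07) and -1.66 ± 0.06 (adjusted p = 1.25e-12).

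Ephb3, the Eph receptor with the highest level, rose in all 3 ACLY groups in 10 mM glucose, from 7.10, 6.94, 6.62 and 6.79 in KO to 7.40, 7.42, 7.46 and 7.35 in Nuc, by 0.55 ± 0.08 (adjusted p = 5.71e-05). The changes in WT and Cyto were 0.41 ± 0.08 (adjusted p = 0.00107) and 0.40 ± 0.09 (adjusted p = 0.00238). At 1 mM glucose Cyto was instead lower (6.94, 6.69, 6.71 and 6.79 against 7.35, 7.18, 7.26 and 7.14), with a difference of -0.45 ± 0.07 (adjusted p = 3.54e-05). Ephb4, the partner of Efnb2 in vessels, fell in all 3 ACLY groups in 1 mM glucose. The widest fall was in Nuc, from 6.51, 6.36, 6.45 and 6.34 in KO to 5.88, 6.03, 6.10 and 6.07, with a difference of -0.39 ± 0.06 (adjusted p = 5.53e-05). The WT and Cyto libraries also lay below all KO libraries and were called lower, with differences of -0.21 and -0.24. Ephb2 rose in Cyto in 10 mM glucose, from 6.10, 5.66, 5.72 and 5.80 to 6.17, 6.18 and 6.31, by 0.40 ± 0.10 (adjusted p = 0.00453), and gave -0.02 ± 0.10 (adjusted p = 0.864) in 1 mM glucose.

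**Figure D3:**
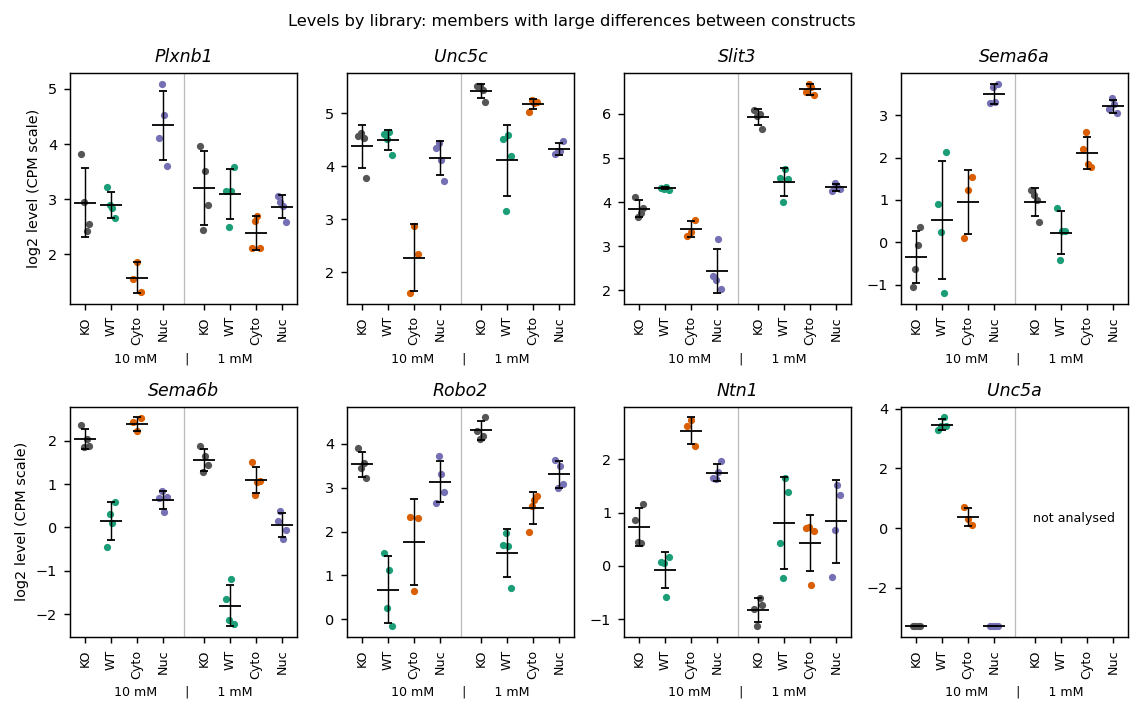
Log2 level in every library (points) with group mean and SD (bars) of 8 guidance genes that set the constructs apart, by construct on the horizontal axis, 10 mM glucose left and 1 mM right of the line. Sema6a is highest in Nuc in both media, Sema6b lowest in WT, and the Cyto points of Unc5c are low in 10 mM glucose alone.

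The contrast of Nuc with Cyto recurred in part between the media, which share no libraries. Acly was also lower in Nuc than in Cyto, with a log2 difference of -0.62 in 10 mM and -1.53 in 1 mM glucose. The place of ACLY and its level therefore cannot be told apart in this contrast. The same limit holds for Nuc against WT, where Acly differed by -1.09 in 10 mM and -1.60 in 1 mM glucose (log2). It holds as well for Cyto against WT in 10 mM glucose, where Acly differed by -0.47. If the same cell lines served in both media, a difference between lines would recur too, and this was not tested. Of the members in both tables, 24 were called in Nuc against Cyto in 10 mM and 27 in 1 mM glucose, and 17 were called in the same direction in both, 70.8% of the first list and 63.0% of the second. Over all 11931 shared genes these shares were 54.4% and 42.8%. Among the 17, Sema3a, Sema3c, Sema6a and Epha3 were higher in Nuc, and Slit3, Ephb6, Sema6b and Sema3f lower. The Epha3 call in 1 mM glucose, 1.18 ± 0.44 (adjusted p = 0.0387), was lost without Cyto replicate 1 or 2 or Nuc replicate 2, 3 or 4 and under quantile normalization (0.86 to 1.20, adjusted p from 0.062 to 0.134). Unc5c was the single member called in opposite directions, 1 of 18 called in both media, against 233 of 2324 over all genes.

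**Figure D4:**
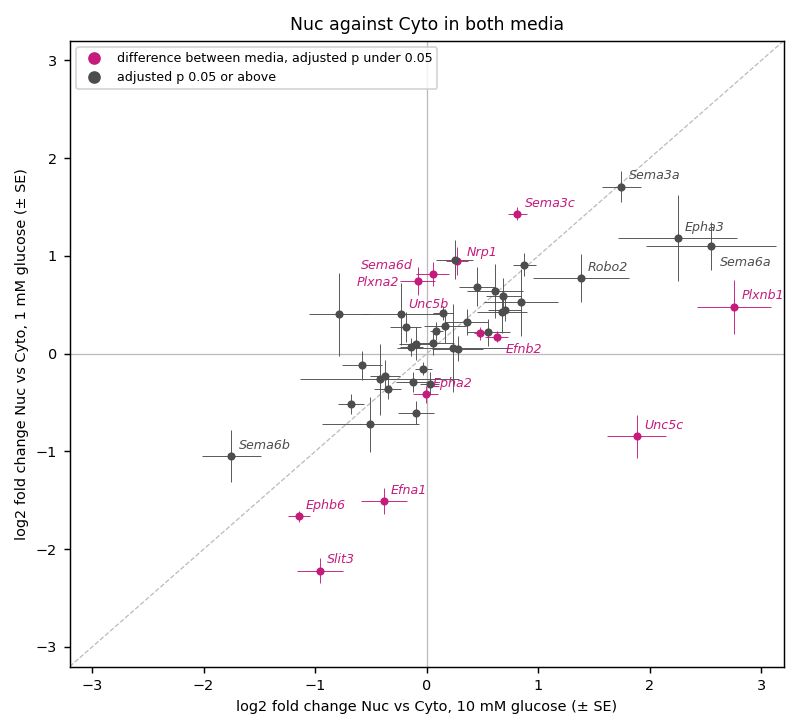
Log2 fold change of Nuc against Cyto (± SE) in 10 mM glucose (horizontal) and 1 mM glucose (vertical) for the 48 members in both tables, with the line of equality dashed. Coloured points differed between media at an adjusted p under 0.05; Unc5c has 1.88 in 10 mM and -0.85 in 1 mM glucose.

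For WT against KO 14 members were called in the same direction in both media, 63.6% of the 22 called in 10 mM and 53.8% of the 26 called in 1 mM glucose (66.5% and 48.3% over all genes). It was 12 for Cyto against KO (54.5% of 22 and 37.5% of 32, with 58.9% and 36.3% over all genes) and 20 for Nuc against KO (66.7% of 30 and 60.6% of 33, with 59.7% and 47.0% over all genes). Calls in opposite directions were those of Ntn1 for WT, of Ephb3 and Sema3f for Cyto, and of Efna4, Ntn3 and Sema6c for Nuc. They make 1 of the 15 members called in both media, 2 of 14 and 3 of 23. Over all shared genes 319 of 3677, 722 of 3532 and 614 of 3981 were opposite. For Nuc against WT 17 were shared, 73.9% of 23 in each medium, with none opposite, and 60.2% and 46.2% over all genes, where 94 of 2251 were opposite. For Cyto against WT 9 were shared, 52.9% of 17 and 31.0% of 29 (56.3% and 34.8% over all genes), with Sema3c, Slit3 and Unc5c opposite, 3 of the 12 called in both against 435 of 2644 over all genes.

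A direct test of whether a fold change differed between media was run on the genes in both tables. For WT against KO it called 20 of 48 members (4 with the larger value in 1 mM glucose and 16 with the smaller), against 26.2% of all genes (13.5% and 12.7%). For Cyto against KO it called 23 (6 and 17) against 44.7% (21.5% and 23.2%), and for Nuc against KO 21 (4 and 17) against 36.5% (17.8% and 18.7%). For Nuc against Cyto it called 12 (4 and 8) against 19.0% (9.47% and 9.48%), and 20 with array weights. These 3 comparisons with KO share the KO libraries of each medium. Glucose and batch cannot be told apart in any of them.

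For WT against KO the members with the smallest adjusted p were Nrp2, with a difference (1 mM minus 10 mM) of -1.22 ± 0.15 (adjusted p = 2.95e-07), Slit3 with -1.92 ± 0.24 (adjusted p = 4.08e-07), Efnb2 with 0.70 ± 0.11 (adjusted p = 1.26e-05) and Ephb6 with -0.67 ± 0.10 (adjusted p = 1.95e-05). Nrp2 and Slit3 were lower than KO in 1 mM glucose and not called in 10 mM, and the step of Efnb2 was wider in 1 mM. For Cyto against KO they were Efnb2 with 1.00 ± 0.11 (adjusted p = 2.39e-08), Sema3f with -1.28 ± 0.16 (adjusted p = 2.21e-07), Efna2 with -1.57 ± 0.21 (adjusted p = 5.58e-07) and Ephb3 with -0.84 ± 0.12 (adjusted p = 8.44e-07). For Nuc against KO they were Efna2 with -1.52 ± 0.20 (adjusted p = 7.8e-07), Sema3f with -1.11 ± 0.15 (adjusted p = 1.7e-06), Ephb6 with -0.74 ± 0.10 (adjusted p = 2.01e-06) and Efna4 with -1.16 ± 0.19 (adjusted p = 1.76e-05). All 4 had the lower value in 1 mM glucose. For Nuc against Cyto they were Unc5c with -2.73 ± 0.36 (adjusted p = 1.68e-06), Sema3c with 0.62 ± 0.10 (adjusted p = 6.37e-05), Slit3 with -1.26 ± 0.24 (adjusted p = 0.000351) and Plxnb1 with -2.28 ± 0.45 (adjusted p = 0.000474). For Sema3c the excess of Nuc over Cyto was wider in 1 mM glucose. For Plxnb1 it was 2.76 in 10 mM and 0.48 in 1 mM glucose, and was called in 10 mM alone.

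**Figure D5:**
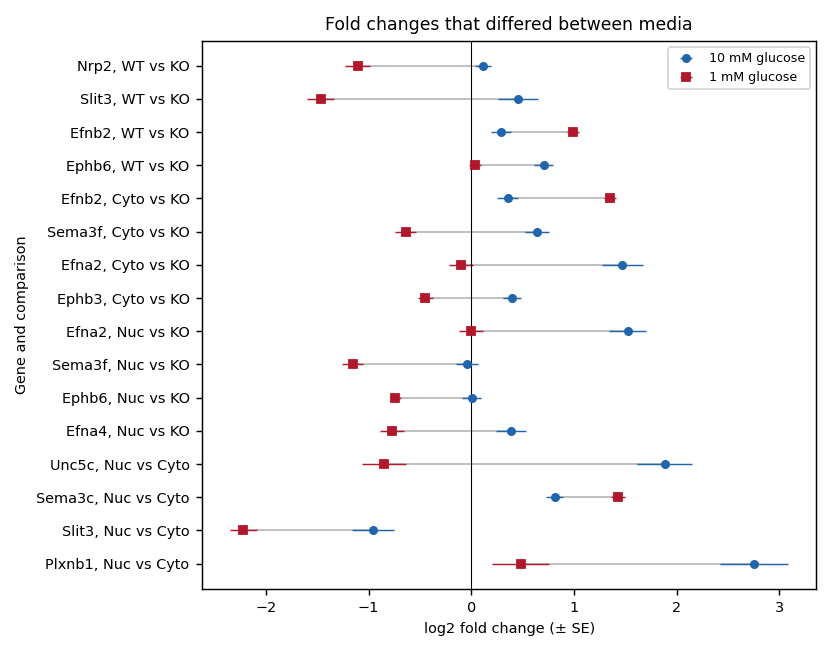
Log2 fold changes (± SE, horizontal axis) in 10 mM and 1 mM glucose for the members with the smallest adjusted p in the test of a difference between media, by gene and comparison (vertical axis). Each gray line joins the media; Unc5c in Nuc against Cyto has 1.88 and -0.85.

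Other genes of these pathways, such as co-receptors and adaptors, from a list of 83, were measured for 68 in 10 mM and 64 in 1 mM glucose. In 10 mM glucose WT against KO called 28 (12 higher and 16 lower), Cyto against KO 32 (19 and 13), Nuc against KO 41 (19 and 22) and Nuc against Cyto 36 (15 and 21). These are 41.2%, 47.1%, 60.3% and 52.9% of the list, against 40.8%, 38.5%, 45.3% and 31.0% of all genes. Under 1 mM glucose the same comparisons called 36 (17 and 19), 48 (21 and 27), 44 (21 and 23) and 35 (17 and 18). These are 56.3%, 75.0%, 68.8% and 54.7%, against 58.2%, 64.7%, 60.0% and 41.0% of all genes. The WT against KO share thus lay near that of all genes in both media. Over all 6 comparisons in both media their medians ran from -0.14, for Nuc against KO in 10 mM glucose, to 0.08, for Cyto against WT in 10 mM glucose. Gpc1, a glypican that binds Slits, rose in Cyto in 10 mM glucose by 1.20 ± 0.07 (adjusted p = 1.58e-09) and was lower in Nuc than in Cyto with a difference of -1.59 ± 0.07 (adjusted p = 6.26e-11). Itga1, an integrin subunit that serves as a partner of Sema7a's receptor Itgb1, rose in WT by 2.00 ± 0.13 (adjusted p = 8.85e-09) and in Nuc by 1.69 ± 0.13 (adjusted p = 4.24e-08). Tiam1, a Rac activator downstream of ephrins, rose in Nuc in 1 mM glucose by 3.36 ± 0.19 (adjusted p = 1.64e-10), and Chn2, a Rac inactivator of the family that acts in Eph signalling, fell there with a difference of -2.14 ± 0.13 (adjusted p = 3.12e-10). Vegfc, a growth factor whose receptors use Nrp2, fell in Cyto in 1 mM glucose with a difference of -1.84 ± 0.10 (adjusted p = 6.74e-11).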

How the data were processed

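RNA was sequenced from Acly knockout MEFs carrying 4 constructs, in 10 mM glucose (15 libraries used) and 1 mM glucose (16). The authors deposited 1 table per medium of log2 values per gene, on a CPM scale normalized within each table; kallisto, edgeR, limma and GRCm39 are named per the submitters' processing notes, and their versions and settings are not given in the sources used here. Libraries were grouped by the labels. Depth is unknown, so no counting error can be given and only the spread among libraries measures precision. The lowest values are -3.29 in 10 mM and -3.59 in 1 mM glucose.

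From these values limma 3.58.1 in R 4.3.3 fitted the 4 group means of each table with a variance trend, after a check of the script on simulated data. Each comparison's p-values were adjusted by the Benjamini-Hochberg method over the whole table, also for the F test, and the difference between media was fitted on the 11931 shared genes. Members and lists (pathway genes, markers, motifs) were chosen with earlier results of these data known. Named members were, per comparison, up to 5 with the highest and up to 5 with the lowest fold change among called members whose groups did not overlap and whose higher group mean was at least 0, the member with the highest level of each family, up to 4 with the smallest adjusted p for each difference between media and up to 2 pathway genes per comparison; further members described were chosen after their values were seen. Levels per kilobase used median transcript lengths of an older mouse annotation (GENCODE M21). Alternatives were other scalings, a higher minimum level, 1 added on the linear scale, no variance trend, array weights, only the groups compared, a replicate block, and each library left out. Leaving out the libraries numbered 4 and removing length trends were added after seeing the data.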

Additional observations from a re-analysis of the deposited data

Results flagged for a closer look

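Outlying libraries were sought in 277 groups of 4 libraries of the 42 named members, and the other members were not checked. In 22 groups the gap of a library to its nearest neighbour, as a share of the group's range, passed Dixon's 95% critical value. Chance gives about 1 in 20, but most named members were picked by their values, so the 22 cannot be set against that share. KO replicate 1 in 10 mM glucose stood apart for Ephb4 at 5.78 (the other 3 from 6.00 to 6.02) and Sema3a at 5.12 (the other 3 from 4.20 to 4.32). WT replicate 3 in 10 mM glucose stood apart for Ntn1 at -0.58 (the other 3 from 0.05 to 0.16). KO replicate 2 in 10 mM glucose stood apart for Ntn3 at 0.64 (the other 3 from 1.62 to 1.81). WT replicate 4 in 10 mM glucose stood apart for Plxnb2 at 9.72 (the other 3 from 9.65 to 9.66). WT replicate 1 in 10 mM glucose stood apart for Sema6d at 4.54 (the other 3 from 4.27 to 4.31). KO replicate 4 in 10 mM glucose stood apart for Unc5c at 3.77 (the other 3 from 4.53 to 4.64). WT replicate 2 in 1 mM glucose stood apart for Efna5 at 4.75 (the other 3 from 5.30 to 5.36), Nrp1 at 6.66 (the other 3 from 7.41 to 7.56), Nrp2 at 5.85 (the other 3 from 6.47 to 6.54), Robo1 at 4.94 (the other 3 from 5.79 to 5.95), Sema3f at 6.59 (the other 3 from 6.97 to 7.02) and Sema5a at 5.88 (the other 3 from 6.75 to 6.87). KO replicate 4 in 1 mM glucose stood apart for Plxna2 at 5.57 (the other 3 from 5.88 to 5.91) and Sema3a at 4.63 (the other 3 from 5.32 to 5.36). Cyto replicate 1 in 1 mM glucose stood apart for Plxnb2 at 9.76 (the other 3 from 9.58 to 9.61) and Sema3c at 5.41 (the other 3 from 5.63 to 5.65). KO replicate 1 in 1 mM glucose stood apart for Efna1 at 2.60 (the other 3 from 2.77 to 2.80). Cyto replicate 2 in 1 mM glucose stood apart for Efna4 at 3.34 (the other 3 from 3.68 to 3.73). Nuc replicate 4 in 1 mM glucose stood apart for Nrp1 at 7.31 (the other 3 from 7.36 to 7.37). Cyto replicate 3 in 1 mM glucose stood apart for Ntn1 at -0.35 (the other 3 from 0.66 to 0.72). WT replicate 3 in 1 mM glucose stood apart for Ntn4 at 3.63 (the other 3 from 2.92 to 2.99). WT replicate 2 in 1 mM glucose holds 6 of these values, all on the low side, and its counts without that library stand with the comparisons above.

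The fold change of these members differed between the media by the test of the difference itself (1 mM minus 10 mM glucose, log2). WT against KO gave -1.22 for Nrp2, -1.92 for Slit3, 0.70 for Efnb2 and -0.67 for Ephb6. Cyto against KO gave 1.00 for Efnb2, -1.28 for Sema3f, -1.57 for Efna2 and -0.84 for Ephb3. Nuc against KO gave -1.52 for Efna2, -1.11 for Sema3f, -0.74 for Ephb6 and -1.16 for Efna4. Nuc against Cyto gave -2.73 for Unc5c, 0.62 for Sema3c, -1.26 for Slit3 and -2.28 for Plxnb1. Medium and batch cannot be told apart in these differences.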

How the results depend on the processing

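Of the 323 called member fold changes, 239 kept their direction and call in every alternative and 84 lost the call in at least 1. Plxnb2 in Cyto against WT in 1 mM glucose turned from -0.35 to 0.022 under quantile normalization (adjusted p = 0.779), and the cause was not tested. With array weights the members called for a difference between media in Nuc against Cyto numbered 20 in place of 12, and the cause was not tested. Leaving out each library in turn gave, in 10 mM glucose, 17 to 27 members called for WT against KO, 20 to 25 for Cyto against KO, 25 to 32 for Nuc against KO, 16 to 27 for Nuc against Cyto (17 without Cyto replicate 1 and 16 without Nuc replicate 3), 16 to 21 for Cyto against WT, 22 to 25 for Nuc against WT and 38 to 43 by the F test. In 1 mM glucose these ranges were 22 to 26, 29 to 35, 28 to 38, 24 to 34, 27 to 33, 20 to 26 and 40 to 46. For differences between media they were 15 to 20 (WT against KO), 21 to 26 (Cyto against KO), 16 to 22 (Nuc against KO) and 10 to 15 (Nuc against Cyto).

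The labels share replicate numbers across groups, and nothing in them says that a number marks a shared culture or day. Correlations of the deviations of same-numbered libraries ran from -0.026 to 0.40 in 10 mM glucose, where all were above 0 in 5 of 6 comparisons (medians for other numbers were -0.031 to -0.018), and from -0.21 to 0.16 in 1 mM glucose, where that held in 0 of 6. No comparison had all of them above 0.1, and the libraries were not treated as pairs. Each library correlated best with its own number in at most 3 of 4 cases. With the replicate block the counts in 10 mM glucose were 25, 25, 34, 26, 21 and 26, with 43 by the F test, and in 1 mM glucose 24, 32, 33, 27, 30 and 22, with 41, in the order used above; the differences between media gave 21, 24, 21 and 13. The block ended 10 of the 323 member calls, Ntn1 in Nuc against Cyto in 10 mM glucose and 9 in 1 mM glucose: Efna2, Sema6d and Slit2 in WT against KO, Sema4c in Nuc against KO, Efnb1 and Nrp2 in Nuc against Cyto, Sema4a in Cyto against WT, and Plxna2 and Sema7a in Nuc against WT. Values near the floor of each table carry the least information, and the depth behind them is unknown.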
